A study of Triticum aestivum with 24 samples.

Results

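SUT1 is a sucrose transporter, and bread wheat (Triticum aestivum), which holds the chromosome sets A, B and D, carries a copy of it on each of the chromosomes 4A, 4B and 4D. The 3 copies, or homoeologues, were taken by their identifiers: TraesCS4A02G016400 (SUT1-4A), TraesCS4B02G287800 (SUT1-4B) and TraesCS4D02G286500 (SUT1-4D). They are 3 of 107891 gene identifiers in the deposited table, and all 3 were among the 60088 genes tested. The chromosome was read from the identifier. None of the identifiers is in the table of gene names used here, so the name SUT1 rests on the choice of identifiers and was not checked against a sequence, and no coordinates or sequences are given.

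SUT1 proteins sit in the plasma membrane and carry sucrose into cells together with protons. In cereal leaves such as those of maize, SUT1 loads sucrose made by photosynthesis into the phloem, the tissue that exports it to roots, young leaves and grain. Loss of SUT1 in maize leaves sucrose and starch trapped in the leaf blade. Homoeologous transcripts resemble each other, so a read may have been counted for the wrong copy, and the split of reads between SUT1-4A, SUT1-4B and SUT1-4D is uncertain to the extent that this happened.

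The samples were leaf RNA of the transgenic lines UBQ/TOR (UBQ from here on), DREM/TOR (DREM) and DEH2/TOR (DEH2) and of the spring wheat line Fielder, labelled WT, from which they were made by transformation. In each TOR line the promoter named in the label drives wheat TOR (target of rapamycin), a kinase that ties growth to the supply of nutrients and energy. Each of the 4 genotype labels had 3 drought libraries, from plants grown at 80% field capacity to an age of 4 weeks and then left without water for 12 days, and 3 well-watered libraries. The labels give neither the day on which leaves were taken, nor how many transformation events or plants stand behind a label. The p-values therefore set differences between groups against the spread of libraries within groups, and that spread may be technical.

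The values are normalized counts, which the authors scaled between libraries. An estimated 33659865 to 55338702 reads stood behind a library, and 4857 to 16624 reads behind a SUT1 copy in a library, which gives a counting error of 1.52% to 2.81% (95% interval, either way; counting error only). Values are not per transcript length, so levels of different copies are not compared, and statements on the copies are about how each one, or the ratio between them, differed between groups. In bulk leaf, fewer phloem cells and less RNA per cell cannot be told apart.

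Expression along parts of some chromosomes went against the genotype labels. At the start of chromosome 1B, 210 genes lay between -5.19 and -4.41 (library medians of the log2 deviation from the regime's median over its 4 groups) in DREM drought and DEH2 well-watered, and between -0.01 and 0.21 in the other 6 groups. On chromosome 2A, 1470 genes lay between -0.77 and -0.68 in WT drought and UBQ well-watered, and between 0.04 and 0.11 in the others. The drought and well-watered libraries of each genotype label therefore differ in at least 1 of these regions, so a drought change within a label cannot be told apart from a difference between plants, and no drought change can be given without such libraries. In UBQ drought 240 genes on 6B, at -4.11 to -3.89, and 120 on 4B, at 0.77 to 0.80, also stood apart from the other groups. The SUT1 copies lie outside these regions. The 30 tested genes nearest to each copy had median deviations between -0.06 and 0.14 in all groups. WT drought replicate 1 had 29.0% of its total in its 50 most abundant genes, the highest share of any library.

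The balance of the copies differed between the regimes under all 3 scalings. How often other homoeologues shift against each other as much was not tested, so this is not shown to be particular to SUT1. As a mean over the 4 genotypes, 81.8% of all tested genes passed for drought. Under drought, SUT1-4A rose relative to SUT1-4B in every genotype label, and it rose relative to SUT1-4D as well. The ratio of SUT1-4A to SUT1-4B was 1.63-fold higher in drought than in well-watered libraries, as a mean over the 4 genotypes (log2 0.71; exact permutation of the regime within each genotype, two-sided, adjusted p = 1.88e-05 over 3 pairs). The ratio of SUT1-4A to SUT1-4D was 1.36-fold higher (log2 0.44; exact permutation, adjusted p = 1.88e-05), and that of SUT1-4D to SUT1-4B 1.20-fold higher (log2 0.26; exact permutation, adjusted p = 2.5e-05). For the first 2 pairs the raw p of 1.25e-05 is the smallest that the 160000 arrangements can give. The 3 log2 ratios are not independent, since each follows from the other 2. A ratio within a library does not depend on how libraries are scaled, and it shows unequal change of the copies, not which of them moved.

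In UBQ the log2 ratio of SUT1-4A to SUT1-4B was 0.37, 0.39 and 0.38 in the drought libraries, against -0.49, -0.40 and -0.46 in the well-watered ones. In DREM it was 0.30, 0.32 and 0.32 under drought, against -0.14, -0.12 and -0.14. In DEH2 it was 0.45, 0.43 and 0.43 under drought, against -0.41, -0.41 and -0.44. WT had 0.47, 0.45 and 0.55 under drought, against -0.20, -0.23 and -0.16. All 12 drought libraries thus lay above all 12 well-watered libraries. Which copy had the higher level cannot be read from the sign of the ratio, since values are not per transcript length. The change was 0.83 in UBQ, 0.45 in DREM, 0.86 in DEH2 and 0.69 in WT, and its difference between genotypes was not tested.

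**Figure D1:**
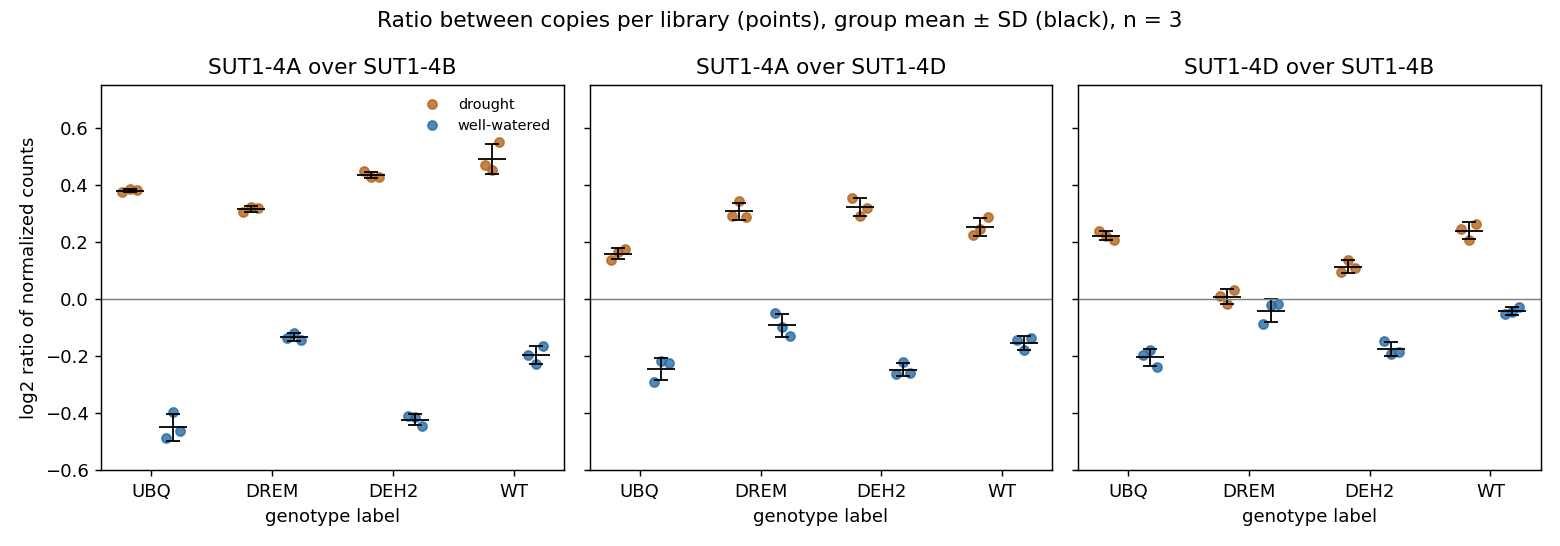
Log2 ratio of the normalized counts of each pair of SUT1 copies (vertical axis) in every library (points), by genotype label, with drought left of well-watered; black bars are the group mean ± SD (n = 3). For SUT1-4A over SUT1-4B the drought libraries lie above the well-watered libraries in all 4 genotypes, while the 4D over 4B ratio in DREM changed by 0.05 and its groups overlap. The sign of a ratio does not show which copy had the higher level.

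The ratio of SUT1-4A to SUT1-4D changed by 0.40 in UBQ, 0.40 in DREM, 0.57 in DEH2 and 0.41 in WT, and the drought and well-watered libraries did not overlap in any genotype. The ratio of SUT1-4D to SUT1-4B changed by 0.43 in UBQ, 0.29 in DEH2 and 0.28 in WT, again without overlap. In DREM it changed by 0.05, with -0.02 to 0.03 under drought, against -0.09 to -0.02 in well-watered libraries, and the groups overlapped. An exact permutation test of 3 against 3 libraries within 1 genotype cannot go below 0.10.

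Expressed as shares of the summed normalized count, SUT1-4A made up 37.5% ± 0.21 (SD, n = 3) under drought in UBQ, against 28.2% ± 0.58 (SD, n = 3) in well-watered plants. In DREM its share was 38.3% ± 0.31 under drought and 31.6% ± 0.33 in well-watered plants (SD, n = 3 each). In DEH2 it was 39.4% ± 0.35 and 28.3% ± 0.24, and in WT 39.2% ± 0.65 and 30.7% ± 0.40, in the same order of regimes (SD, n = 3 each). The share of SUT1-4B was lower under drought in each label, at 28.8% ± 0.09 against 38.5% ± 0.55 in UBQ, 30.8% ± 0.17 against 34.7% ± 0.36 in DREM, 29.1% ± 0.09 against 38.0% ± 0.30 in DEH2 and 27.9% ± 0.56 against 35.2% ± 0.32 in WT (SD, n = 3 each). SUT1-4D stayed between 30.5% and 34.3% in all 24 libraries. In UBQ its drought and well-watered shares overlapped, and in DREM, DEH2 and WT they were lower under drought without overlap.

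**Figure D2:**
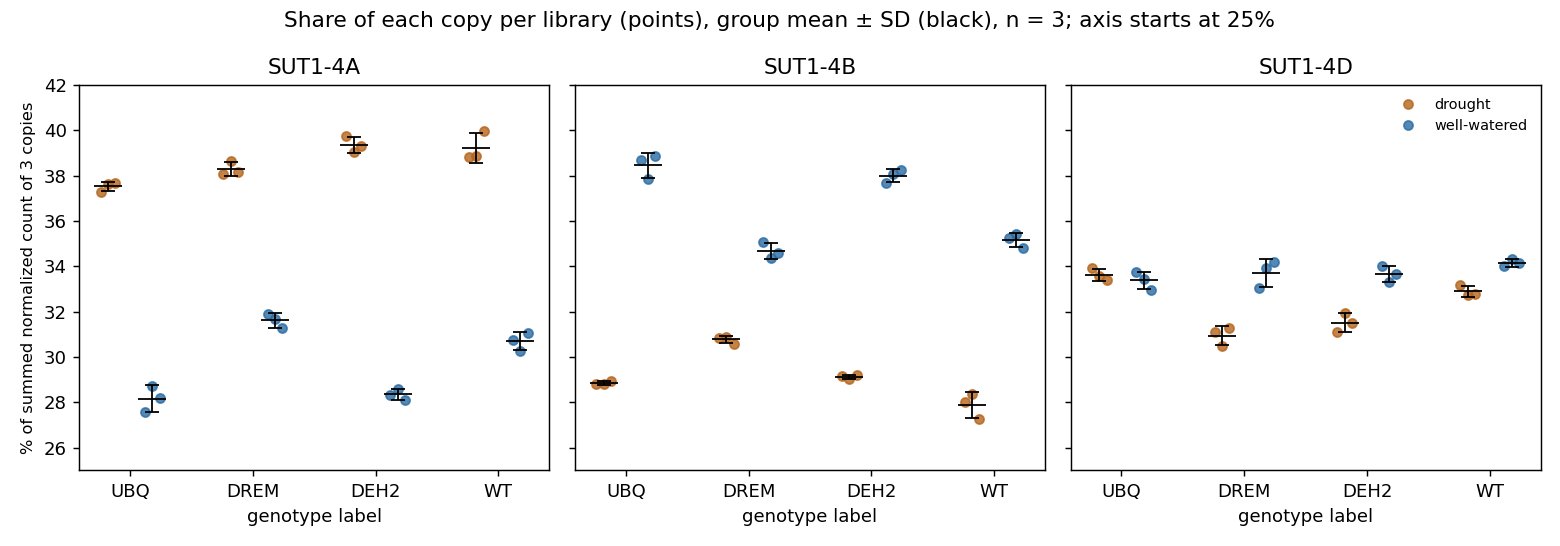
Share of each SUT1 copy in the summed normalized count of the triad (vertical axis, in percent, starting at 25%) in every library (points), by genotype label, with drought left of well-watered; black bars are the group mean ± SD (n = 3). The SUT1-4A share lies between 37.3% and 40.0% in all drought libraries and between 27.6% and 31.9% in all well-watered libraries.

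The level of each copy was tested next. Under drought, 2 of 3 copies passed the test in UBQ (1 higher, 1 lower), 3 of 3 in DREM (all lower), 2 of 3 in DEH2 (both higher) and 2 of 3 in WT (1 higher, 1 lower). Of all tested genes 72.8% passed in UBQ, 68.9% in DREM, 69.6% in DEH2 and 61.4% in WT, so being called is the common case in these comparisons and says little about the copies. In 1 direction, 37.2% were higher and 35.6% lower in UBQ, 33.7% lower in DREM, 35.1% higher in DEH2, and 30.2% higher and 31.2% lower in WT. Drought and well-watered libraries did not overlap for 3 of 3 copies in UBQ and DREM and 2 of 3 in DEH2 and WT, beside 76.5%, 73.9%, 72.4% and 63.6% of all tested genes in the order UBQ, DREM, DEH2 and WT. Of the called genes, 51.1% were higher in UBQ, 51.1% in DREM, 50.4% in DEH2 and 49.2% in WT, and with an equal sum per library 72.0%, 72.2%, 69.0% and 59.8%. The changes were small beside those of other genes. The median size of the log2 change over all tested genes was 0.87 in UBQ, 0.74 in DREM, 0.75 in DEH2 and 0.58 in WT, and 1 of the 12 changes of the copies, that of SUT1-4A in DEH2, was larger than the median of its comparison.

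SUT1-4A rose with drought in UBQ, DEH2 and WT, whichever scaling was used, whereas the direction in DREM depended on the scaling. In UBQ it had 7917, 7948 and 7485 normalized counts under drought, against 6157, 6249 and 6284 in well-watered libraries. In DEH2 it had 12090, 10939 and 12017 under drought, against 6941, 6578 and 6212. In WT it had 11811, 11071 and 11106 under drought, against 8144, 8406 and 8138. No drought library of these 3 labels was as low as a well-watered one of the same label. The log2 changes were 0.32 ± 0.05 in UBQ (SE; limma adjusted p = 7.74e-07), 0.83 ± 0.05 in DEH2 (adjusted p = 6.53e-16) and 0.46 ± 0.05 in WT (adjusted p = 1.09e-09).

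In DREM, SUT1-4A had 7169, 7316 and 7788 normalized counts under drought, against 8159, 8085 and 7865 in well-watered libraries. The drought libraries were lower without overlap, by a log2 change of -0.12 ± 0.05 (SE; limma adjusted p = 0.038). With an equal sum per library the change was 0.38 and with quantile normalization 0.52, so it turned round. It also missed the threshold when 1 of 4 libraries was left out, at -0.10 (adjusted p = 0.11) without DREM well-watered replicate 1, -0.11 (adjusted p = 0.084) without replicate 2, -0.09 (adjusted p = 0.15) without DREM drought replicate 1 and -0.10 (adjusted p = 0.10) without replicate 2.

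SUT1-4B fell with drought in UBQ, DREM and WT on the authors' scale. In UBQ it had 6111, 6084 and 5750 normalized counts under drought, against 8639, 8226 and 8665 in well-watered libraries. In DREM it had 5810, 5847 and 6238 under drought, against 8972, 8772 and 8696. In WT it had 8522, 8087 and 7580 under drought, against 9340, 9833 and 9114. The groups of these 3 labels did not overlap. The log2 changes were -0.51 ± 0.05 in UBQ (SE; limma adjusted p = 1.75e-10), -0.56 ± 0.05 in DREM (adjusted p = 2.12e-11) and -0.23 ± 0.05 in WT (adjusted p = 0.00028). With an equal sum per library they were 0.06, -0.07 and -0.05, and with quantile normalization -0.07, -0.03 and -0.04, none of them past the threshold. The equal-sum value in WT was 0.03 without WT drought replicate 1.

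In DEH2, SUT1-4B had 8869, 8134 and 8933 normalized counts under drought, against 9228, 8762 and 8452 in well-watered libraries, and the groups overlapped. Its log2 change of -0.03 ± 0.05 (SE; limma adjusted p = 0.64) did not pass the test on the authors' scale, but was 0.39 both with an equal sum per library and with quantile normalization, past the threshold in each.

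SUT1-4D took a place between the other copies. In DEH2 it had 9463, 8942 and 9636 normalized counts under drought, against 8328, 7665 and 7434 in well-watered libraries, without overlap. It rose there by a log2 change of 0.26 ± 0.05 (SE; limma adjusted p = 5.08e-05), also under both other scalings. In DREM it had 5853, 5770 and 6378 under drought, against 8445, 8654 and 8599, and fell by 0.51 ± 0.05 on the log2 scale (SE; limma adjusted p = 2.43e-10). That fall was not found with an equal sum per library (-0.02) or with quantile normalization (0.02). In UBQ it had 7200, 7094 and 6632 under drought and 7532, 7269 and 7349 in well-watered libraries, and in WT 10101, 9331 and 9105 under drought and 9006, 9526 and 8937 in well-watered libraries. The groups did not overlap in UBQ and overlapped in WT. The log2 changes, -0.08 ± 0.05 in UBQ (SE; limma adjusted p = 0.15) and 0.05 ± 0.05 in WT (adjusted p = 0.38), did not pass the test. With an equal sum per library they were 0.48 and 0.23 and with quantile normalization 0.36 and 0.25, all past the threshold.

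**Figure D3:**
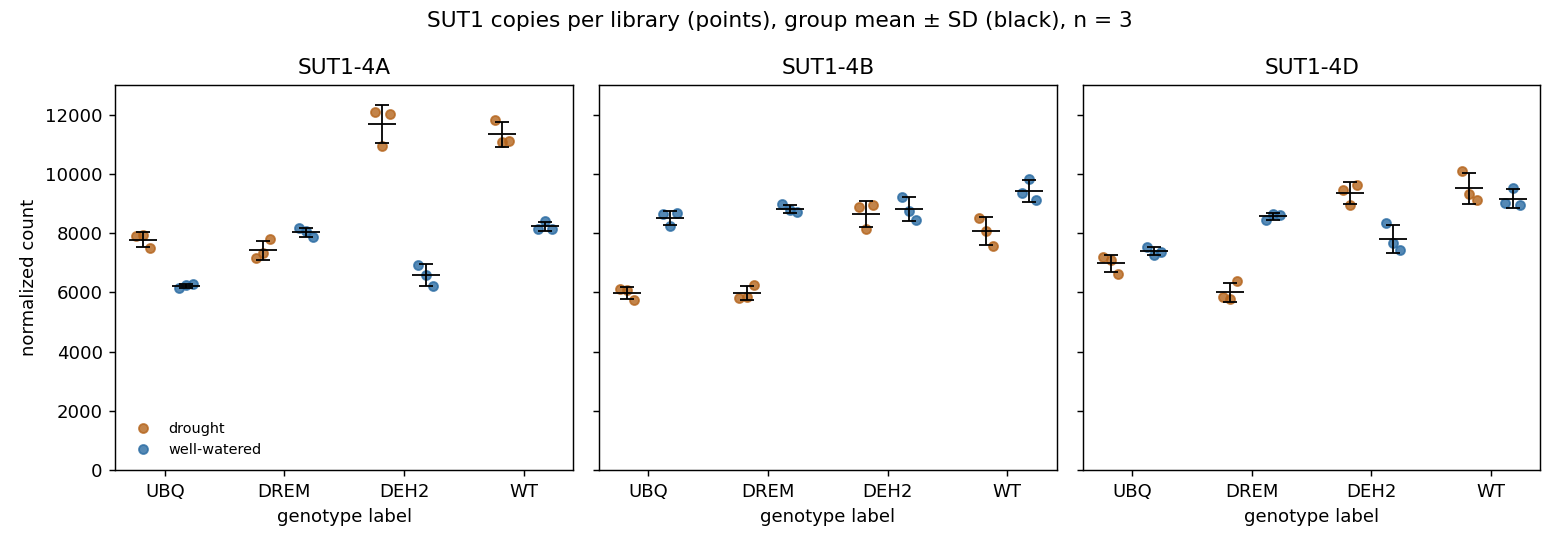
Normalized counts (vertical axis, starting at 0) of each SUT1 copy in every library (points), by genotype label, with drought left of well-watered; black bars are the group mean ± SD (n = 3). SUT1-4A in drought DEH2 and WT, at 10939 to 12090, is set apart from all other groups, and SUT1-4B in drought UBQ and DREM, at 5750 to 6238, lies below all other groups.

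Over the 4 genotypes together, on the authors' scale, the log2 change with drought was 0.37 ± 0.02 for SUT1-4A (SE; limma adjusted p = 3.58e-15), -0.33 ± 0.03 for SUT1-4B (adjusted p = 1.97e-13) and -0.07 ± 0.03 for SUT1-4D (adjusted p = 0.014). Among all tested genes 81.8% passed in this comparison, 50.9% of them higher, or 69.9% with an equal sum per library. The rise of SUT1-4A held under both other scalings, at 0.79 and 0.77. SUT1-4B turned to 0.08 and 0.06 and SUT1-4D to 0.34 and 0.32, all past the threshold in the new direction. SUT1-4D also turned to 0.08 without the DREM label (limma adjusted p = 0.020) and lost its call, at -0.01, without DREM and DEH2. An equal sum per library moved the median change of all genes by 0.40 in this comparison, by 0.55 in UBQ, 0.49 in DREM, 0.40 in DEH2 and 0.16 in WT. Relative to the median gene, SUT1-4A stood at 0.36, SUT1-4B at -0.34 and SUT1-4D at -0.08 with an equal sum per library, as on the authors' scale, where they stood at 0.35, -0.35 and -0.09. Quantile normalization moved that median by 0.01, and there the copies stood at 0.75, 0.04 and 0.30 relative to it.

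**Figure D4:**
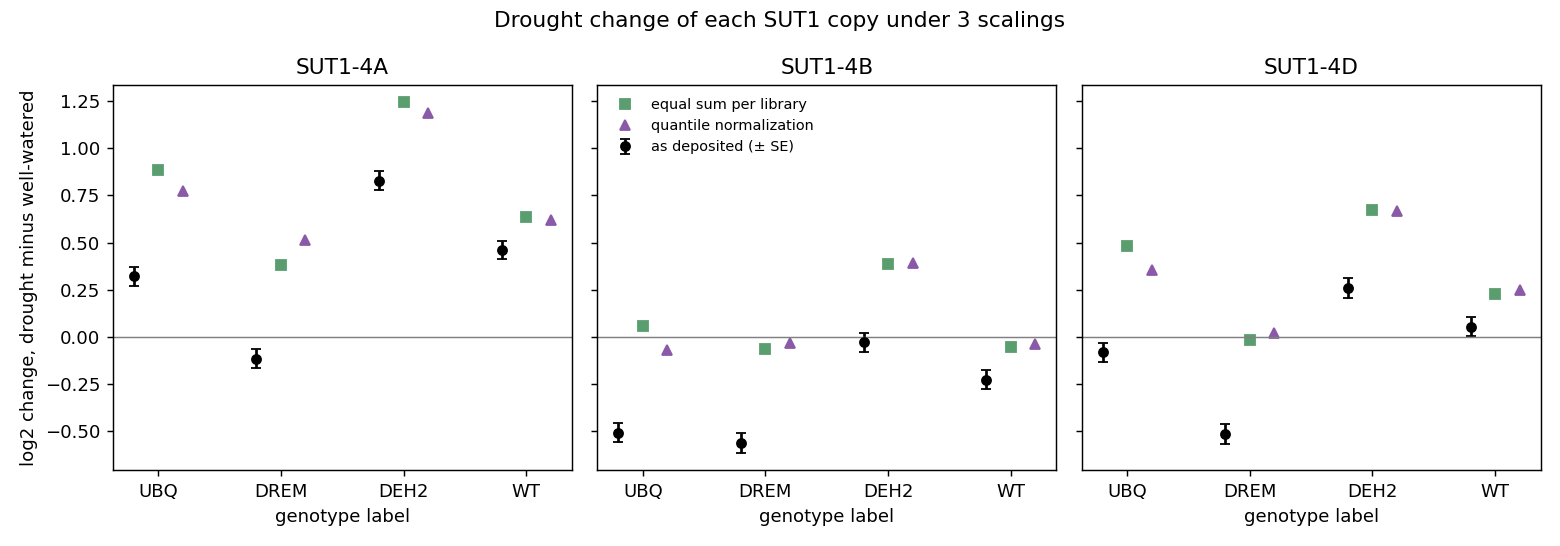
Log2 change with drought (vertical axis) of each SUT1 copy in each genotype label, on the authors' scale (black, ± SE of the fit) and after an equal sum per library (green squares) or quantile normalization (purple triangles). Both other scalings lie above the authors' scale in each case, and the order SUT1-4A above SUT1-4D above SUT1-4B holds within each label and scaling.

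The summed normalized count of the 3 copies did not follow 1 direction. In UBQ it was 20740 ± 759 under drought and 22123 ± 329 in well-watered plants, and in DREM 19390 ± 880 and 25416 ± 224 (SD, n = 3 each). In DEH2 it was 29675 ± 1439 under drought and 23200 ± 1212 in well-watered plants, and in WT 28904 ± 1369 and 26815 ± 837 (SD, n = 3 each). The sum was lower under drought in UBQ and DREM and higher in DEH2 and WT, each without overlap. The mean log2 difference over the genotypes was -0.01 (exact permutation within genotypes, two-sided, p = 0.93). It was 0.41 with an equal sum per library and 0.39 with quantile normalization (exact permutation, p = 1.25e-05 each, the smallest possible). On the authors' scale it was 0.12 without the DREM label (exact permutation, p = 0.0485) and 0.02 without the UBQ label (p = 0.77). A general rise of SUT1 transcripts is thus found or not found depending on the scaling and on the labels included.

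The next question was whether the drought change of a copy differed between a TOR line and WT. In DREM all 3 copies changed less upward, or more downward, than in WT. The differences of the log2 changes were -0.58 ± 0.07 for SUT1-4A, -0.34 ± 0.07 for SUT1-4B and -0.57 ± 0.07 for SUT1-4D (SE; limma adjusted p = 3.02e-08, 0.00026 and 1.13e-07). That of SUT1-4D was past the threshold under both other scalings (-0.24 and -0.23). That of SUT1-4A was -0.25 with an equal sum and -0.10 with quantile normalization, where it missed the threshold, and that of SUT1-4B was -0.01 and 0.0029, both short of the threshold. Of all tested genes 44.4% passed in this comparison.

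In DEH2 all 3 copies changed more upward than in WT, by 0.37 ± 0.07 for SUT1-4A, 0.20 ± 0.07 for SUT1-4B and 0.21 ± 0.07 for SUT1-4D (SE; limma adjusted p = 4.62e-05, 0.023 and 0.020), against 48.7% of all tested genes that passed. These differences were larger under both other scalings (0.42 to 0.61) and past the threshold there. For SUT1-4A no left-out library changed the call. For SUT1-4B and SUT1-4D the call was lost without WT well-watered replicate 2 (0.17 and 0.18), DEH2 well-watered replicate 3 (0.17 and 0.17), WT drought replicate 3 (0.15 and 0.18) or DEH2 drought replicate 3 (0.17 and 0.18), and for SUT1-4B also without DEH2 drought replicate 1 (0.18), with adjusted p up to 0.090. Both calls were also lost with no trend and an ordinary prior (limma adjusted p = 0.060 and 0.057) and in a fit of the 4 groups alone (adjusted p = 0.063 and 0.052).

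In UBQ 1 copy passed, against 51.7% of all tested genes. SUT1-4B differed by -0.28 ± 0.07 (SE; limma adjusted p = 0.0015), while SUT1-4A differed by -0.14 ± 0.07 and SUT1-4D by -0.14 ± 0.07 (adjusted p = 0.092 and 0.12). The sign turned with an equal sum per library, at 0.11 for SUT1-4B, which did not pass, and at 0.25 for SUT1-4A and 0.26 for SUT1-4D, which passed. Without WT drought replicate 1 these equal-sum differences were 0.03, 0.16 and 0.17, of which that of SUT1-4D passed. With quantile normalization the differences were -0.03, 0.15 and 0.11, of which that of SUT1-4A passed. The differences of all 3 lines share the WT libraries.

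The lines were then set against WT within a regime, again with the WT libraries shared between the comparisons. In well-watered plants SUT1-4A and SUT1-4D were lower in UBQ and DEH2 than in WT under all 3 scalings, and no copy passed the test in DREM. UBQ and DEH2 are also the 2 lines whose well-watered libraries stood apart on 2A and 1B, while those of WT and DREM did not, so the line and this difference between plants cannot be told apart here. SUT1-4A averaged 6230 ± 65.7 normalized counts in UBQ, 8036 ± 153 in DREM and 6577 ± 365 in DEH2, against 8230 ± 153 in WT (SD, n = 3 each). The log2 differences from WT were -0.40 ± 0.05 in UBQ (SE; limma adjusted p = 9.34e-08), -0.03 ± 0.05 in DREM (adjusted p = 0.69) and -0.32 ± 0.05 in DEH2 (adjusted p = 6.58e-06). The UBQ and DEH2 libraries all lay below the lowest WT library.

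SUT1-4D averaged 7383 ± 135 normalized counts in UBQ, 8566 ± 108 in DREM and 7809 ± 464 in DEH2, against 9156 ± 322 in WT well-watered plants (SD, n = 3 each). Its log2 difference from WT was -0.31 ± 0.05 in UBQ (SE; limma adjusted p = 1.88e-05), -0.10 ± 0.05 in DREM (adjusted p = 0.21) and -0.23 ± 0.05 in DEH2 (adjusted p = 0.0013). SUT1-4B averaged 8510 ± 246 in UBQ, 8813 ± 143 in DREM and 8814 ± 391 in DEH2, against 9429 ± 368 in WT (SD, n = 3 each). Its difference of -0.15 ± 0.05 in UBQ (SE; limma adjusted p = 0.026) was lost with quantile normalization (-0.11), without WT well-watered replicate 2 (-0.12) and without UBQ well-watered replicate 2 (-0.12). Its differences of -0.10 ± 0.05 in DREM and -0.10 ± 0.05 in DEH2 did not pass (adjusted p = 0.19 and 0.20). The differences of the 3 copies in DREM turned to between 0.05 and 0.12 under the other scalings, without passing.

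So 3 of 3 copies were called lower in UBQ, 0 of 3 in DREM and 2 of 3 in DEH2, where 15.9% of all tested genes were lower in UBQ and 10.5% in DEH2, and 21.3% were called in either direction in DREM. The libraries of the line and of WT did not overlap for 3 of 3 copies in UBQ, 2 of 3 in DREM and 2 of 3 in DEH2, beside 41.7%, 36.9% and 31.4% of all tested genes. For the count of 0 in DREM, 0 copies had an unadjusted limma p under 0.05, and the smallest was 0.067. The median log2 difference of the 3 copies was -0.31 in UBQ, -0.10 in DREM and -0.23 in DEH2, beside medians of all tested genes of 0.00, -0.01 and 0.00. In size these differences were common. The median size of the log2 difference over all tested genes was 0.28 in UBQ, 0.23 in DREM and 0.21 in DEH2. SUT1-4A, the copy furthest from WT in UBQ and DEH2, differed by more than 62.6% and 63.8% of the genes there. The balance of the copies differed as well. The log2 ratio of SUT1-4A to SUT1-4B averaged -0.45 ± 0.05 in UBQ, -0.13 ± 0.01 in DREM and -0.42 ± 0.02 in DEH2, against -0.20 ± 0.03 in WT (SD, n = 3 each). The libraries of each line lay apart from those of WT, lower in UBQ and DEH2 and higher in DREM.

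**Figure D5:**
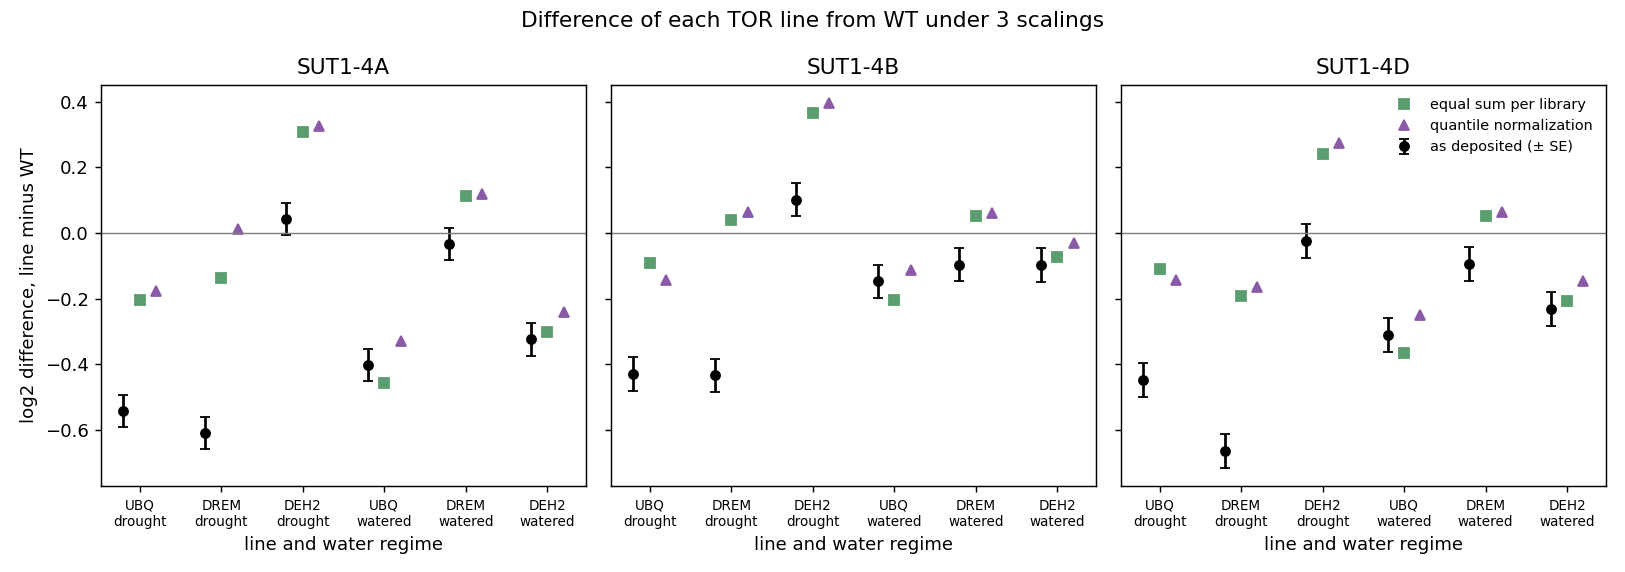
Log2 difference of each TOR line from WT (vertical axis) for each SUT1 copy, under drought (left part) and in well-watered plants (right part), on the authors' scale (black, ± SE of the fit) and after an equal sum per library (green squares) or quantile normalization (purple triangles). In well-watered UBQ and DEH2 all 3 scalings place SUT1-4A and SUT1-4D below WT. Under drought all 3 scalings place each copy in UBQ, and SUT1-4D in DREM, below WT, by an amount that depends on the scaling. The direction depends on the scaling for SUT1-4A and SUT1-4B in drought DREM and for SUT1-4D in drought DEH2.

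Under drought the copies were lower in UBQ and DREM than in WT on the authors' scale, and no copy passed the test in DEH2. Under drought the WT libraries stood apart on 2A, those of DREM on 1B and those of UBQ on 6B and 4B, so line and plant cannot be told apart in these comparisons either. SUT1-4A averaged 7783 ± 259 normalized counts in UBQ, 7424 ± 324 in DREM and 11682 ± 645 in DEH2, against 11330 ± 417 in WT (SD, n = 3 each). Its log2 difference from WT was -0.54 ± 0.05 in UBQ (SE; limma adjusted p = 3.36e-11), -0.61 ± 0.05 in DREM (adjusted p = 2.22e-12) and 0.04 ± 0.05 in DEH2 (adjusted p = 0.47). The lower level in UBQ held under both other scalings (-0.20 and -0.18). In DREM it was -0.14 with an equal sum and 0.01 with quantile normalization, neither past the threshold. The equal-sum values leaned on WT drought replicate 1, and without it SUT1-4A differed by -0.30 in UBQ, -0.23 in DREM and 0.21 in DEH2, all past the threshold.

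SUT1-4B averaged 5982 ± 201 in UBQ, 5965 ± 237 in DREM and 8645 ± 444 in DEH2, against 8063 ± 471 in WT drought libraries (SD, n = 3 each). The log2 differences of -0.43 ± 0.05 in UBQ and -0.43 ± 0.05 in DREM (SE; limma adjusted p = 1.12e-08 and 9.73e-09) were -0.09 and 0.04 with an equal sum per library, and -0.18, past the threshold, and -0.05, short of it, when WT drought replicate 1 was left out as well. With quantile normalization that in UBQ was -0.14, past the threshold, and that in DREM 0.06. In DEH2 the difference of 0.10 ± 0.05 (SE; limma adjusted p = 0.090) passed without WT drought replicate 1 (0.14, adjusted p = 0.030) and without DEH2 drought replicate 2 (0.14, adjusted p = 0.028).

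SUT1-4D averaged 6976 ± 302 in UBQ, 6001 ± 330 in DREM and 9347 ± 361 in DEH2, against 9512 ± 522 in WT drought libraries (SD, n = 3 each). It differed from WT by -0.45 ± 0.05 in UBQ (SE; limma adjusted p = 7.26e-09), -0.66 ± 0.05 in DREM (adjusted p = 1.13e-12) and -0.02 ± 0.05 in DEH2 (adjusted p = 0.71). The lower level in DREM held under both other scalings (-0.19 and -0.17), and that in UBQ was -0.11, not past the threshold, with an equal sum and -0.14, past it, with quantile normalization. Without WT drought replicate 1 the equal-sum difference in UBQ was -0.19, past the threshold. Thus 3 of 3 copies were called lower in UBQ and in DREM, where 30.3% of all tested genes were lower in each, and 0 of 3 were called in DEH2, where 58.0% of the genes were called. Line and WT libraries did not overlap for 3 of 3 copies in UBQ and in DREM and for 0 of 3 in DEH2, beside 66.6%, 64.5% and 64.1% of all tested genes. In DEH2 0 copies had an unadjusted limma p under 0.05, and the smallest was 0.057. With an equal sum per library all 3 copies were higher in DEH2 than in WT, by 0.31, 0.37 and 0.24, and with quantile normalization by 0.33, 0.40 and 0.27, all past the threshold. The equal-sum values without WT drought replicate 1 were 0.21, 0.28 and 0.16, also past it.

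Across the 8 groups the order of levels differed between the copies, and it depended on the scaling. On the authors' scale SUT1-4A was highest in DEH2 drought and WT drought, whose libraries overlapped, then came WT well-watered, DREM well-watered, UBQ drought and DREM drought, each overlapping the next, and then DEH2 well-watered and UBQ well-watered, which overlapped each other but not the groups above. On that scale SUT1-4B was highest in WT well-watered, followed by DEH2 well-watered, DREM well-watered, DEH2 drought, UBQ well-watered and WT drought, each overlapping the next, and the pair UBQ drought and DREM drought lay below all of them. SUT1-4D was highest in WT drought, DEH2 drought and WT well-watered, which overlapped in turn, and then fell into steps without overlap between DREM well-watered, the overlapping pair DEH2 and UBQ well-watered, UBQ drought and DREM drought. DEH2 drought was highest, after scaling to an equal sum, for all 3 copies, without overlap with the next group, and UBQ well-watered was lowest for all 3, overlapping the next group for SUT1-4B only. WT well-watered then held place 6 for SUT1-4A, 3 for SUT1-4B and 6 for SUT1-4D, against 3, 1 and 3 on the authors' scale. On the authors' scale the highest group mean was 1.88 times the lowest for SUT1-4A, 1.58 times for SUT1-4B and 1.59 times for SUT1-4D. For the 7683 genes with a mean of at least 1000 this ratio had a median of 2.64, and it was smaller than that of SUT1-4A in 30.5% of them, of SUT1-4B in 18.3% and of SUT1-4D in 18.5%.

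Over the 24 libraries many other genes were more like a copy than its homoeologues were. On the log2(value + 1) scale, Pearson's r was 0.14 between SUT1-4A and SUT1-4B, 0.67 between SUT1-4A and SUT1-4D and 0.78 between SUT1-4D and SUT1-4B. Ranked by r with SUT1-4A among 41729 genes with a mean of at least 50, SUT1-4D came at 1276 and SUT1-4B at 17776. Ranked by r with SUT1-4D, SUT1-4B came at 218 and SUT1-4A at 985. The genes most like the summed level of the copies were TraesCS6D02G385600 (r = 0.94), TraesCS6D02G268400 (r = 0.92), TraesCS6D02G259800, TraesCS1A02G363300 and TraesCS3B02G281000 (r = 0.91 each). TraesCS6D02G385600 averaged 1339 normalized counts in UBQ drought, 1444 in DREM drought, 2873 in DEH2 drought and 2339 in WT drought, against 1671, 1917, 1838 and 2120 in the well-watered groups of the same labels. These correlations are descriptions over 24 libraries that fall into 8 groups and share the authors' scaling.

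Few genes next to the copies were expressed. Of the 12 identifiers within 2 places of a copy 3 were expressed highly enough to be tested. The second identifier before SUT1-4A averaged 1460 normalized counts in drought and 1239 in well-watered libraries. On the authors' scale its mean log2 change over the 4 genotypes was 0.25 (limma adjusted p = 2.41e-09), with 0.82 in UBQ, -0.13 in DREM, 0.17 in DEH2 and 0.15 in WT. Next to SUT1-4D, the identifier before it averaged 15.3 in drought and 2.93 in well-watered libraries and rose by 2.34 (limma adjusted p = 3.27e-07). The second one after SUT1-4D averaged 652 and 475 and rose by 0.46 (limma adjusted p = 1.09e-12), with 1.06 in UBQ, 0.16 in DREM, 0.27 in DEH2 and 0.36 in WT. On the same scale the 30 nearest tested genes had a median log2 change of -0.06 around SUT1-4A, -0.07 around SUT1-4B and 0.20 around SUT1-4D. Other scalings are not given for these genes.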

How the data were processed

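Leaf RNA was sequenced in 24 libraries, 3 in each of 8 groups, with 150 cycles per read, and all carry 1 batch label, per the labels. The series' design text names other genotypes and re-watered plants, so the labels alone set the groups. What the authors deposited is a normalized count per gene, treated here as a signal. CASAVA, DESeq2, STAR, Salmon and Trimmomatic are named in the submitters' processing notes, with no version, and no genome build was found for the table (not given in the sources used here). These values are not whole (2.04% to 12.9% were whole multiples, within 0.01, of the value of 1 read), so no count model was fitted. Depth was estimated from that value, 0.651 to 1.54, the commonest value of genes seen in 1 library only.

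Values were taken as log2(value + 1), on which fold changes of low genes are understated, and a gene was tested where 3 or more libraries reached 10. A single limma fit (3.58.1, R 4.3.3, intensity trend, robust prior, package data.table, version 1.17.8) of the 8 groups gave 14 comparisons, two-sided, with Benjamini-Hochberg adjustment over 60088 genes and a threshold of 0.05. Ratios and the sum of the copies were tested by exact permutation (Python 3.11.15). Both steps were tested on simulated data. Alternatives were other pseudocounts, filters, scalings, priors and fits, a replicate block and leaving out each library; leaving out genotype labels, quantile normalization for the sum and the ratios, and an equal sum without WT drought replicate 1, were added after seeing the data. The members and lists were chosen with earlier results of these data known. All 3 copies are named throughout, with the 2 identifiers on each side and the 5 genes most correlated with their sum. No other sucrose gene and no TOR level was analysed here, since 0 of 107891 identifiers matched the RefSeq table (IWGSC CS RefSeq v2.1), so neither the genotype labels nor the tissue was checked against marker genes.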

Additional observations from a re-analysis of the deposited data

Results flagged for a closer look

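For 7 of the 9 tests of a drought change in a TOR line against that in WT, the difference itself passed the test. Of all tested genes 51.7% passed for UBQ, 44.4% for DREM and 48.7% for DEH2. SUT1-4B changed by -0.51 in UBQ and by -0.23 in WT, a difference of -0.28. In DREM, SUT1-4A changed by -0.12 and in WT by 0.46, a difference of -0.58. SUT1-4B changed by -0.56 in DREM and by -0.23 in WT, a difference of -0.34. SUT1-4D changed by -0.51 in DREM and by 0.05 in WT, a difference of -0.57. In DEH2, SUT1-4A changed by 0.83 and in WT by 0.46, a difference of 0.37. SUT1-4B changed by -0.03 in DEH2 and by -0.23 in WT, a difference of 0.20. SUT1-4D changed by 0.26 in DEH2 and by 0.05 in WT, a difference of 0.21. These DEH2 calls of SUT1-4B and SUT1-4D were lost when 1 of several single libraries was left out, in a fit of the 4 groups alone and with an ordinary prior. All are log2 values of the limma fit on the authors' scale, and their dependence on scaling stands beside each in the results. The part of plants that went against their genotype label on 1B and 2A in these differences cannot be told apart from that of the line.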

How the results depend on the processing

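Of 453 values under alternatives, for 46 results, 380 kept direction and side of the threshold, most of them under settings that kept the authors' scale. The ratios between copies kept both under the 2 other scalings, the other pseudocount, each left-out library and each left-out genotype label; quantile normalization gave 0.71, 0.45 and 0.26 for 4A over 4B, 4A over 4D and 4D over 4B. Levels depended on scaling, whose cause was not tested. Of the 46 results, 21 kept direction and side of the threshold with an equal sum per library, and 21 with quantile normalization. Of 30 calls of the copies on the authors' scale, 15 held in the same direction under all 3 scalings. Values below are log2, for SUT1-4A, SUT1-4B and SUT1-4D.

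With an equal sum per library, the direction turned in the drought change of 4B (0.082) and 4D (0.34) over the genotypes, 4B (0.058) and 4D (0.48) in UBQ, 4A in DREM (0.38) and 4B in DEH2 (0.39). It turned in well-watered DREM against WT (0.11, 0.051 and 0.052), in drought DREM (4B, 0.039) and DEH2 (4D, 0.24) against WT, in the UBQ difference of drought changes (0.25, 0.11 and 0.26) and in the triad sum (0.41). Calls were lost for 4B in WT (-0.053), 4B (-0.065) and 4D (-0.016) in DREM, drought UBQ against WT (4B -0.092, 4D -0.11), drought DREM against WT (4A -0.14) and the DREM difference of drought changes (4B -0.012). Calls were gained for 4D in WT (0.23) and drought DEH2 against WT (4A 0.31, 4B 0.37). When WT drought replicate 1 was left out as well, a combination chosen after seeing the data, 4B was 0.10 and 4D 0.36 over the genotypes, 4B was 0.033 in WT and -0.048 in drought DREM against WT, drought DEH2 differed from WT by 0.21, 0.28 and 0.16, and the UBQ differences of drought changes were 0.16, 0.025 and 0.17, and that of DREM was -0.098 for 4B. The call of 4D in WT (0.31) was gained.

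With quantile normalization, the direction turned for 4B (0.063) and 4D (0.32) over the genotypes, 4D in UBQ (0.36), 4A (0.52) and 4D (0.019) in DREM and 4B in DEH2 (0.39). It turned in well-watered DREM against WT (0.12, 0.062 and 0.064), drought DREM (4A 0.013, 4B 0.064) and DEH2 (4D 0.27) against WT, the differences of drought changes of UBQ (4A 0.15, 4D 0.11) and DREM (4B 0.0029) and the triad sum (0.39). Calls were lost for 4B in WT (-0.036), UBQ (-0.067) and DREM (-0.033), in well-watered UBQ against WT (-0.11) and in the UBQ difference of drought changes (-0.031), and for 4A in that of DREM (-0.10). Calls were gained for 4D in WT (0.25) and drought DEH2 against WT (4A 0.33, 4B 0.40).

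With no trend and an ordinary prior, 4 calls were lost at unchanged values, 4A in DREM (-0.12), 4B in well-watered UBQ against WT (-0.15) and the DEH2 differences of drought changes of 4B (0.20) and 4D (0.21). Both DEH2 calls were also lost in a fit of their 4 groups alone. Without the DREM label, 4D turned to 0.077 over the genotypes, past the threshold, and without DREM and DEH2 it was -0.014 and not called. The triad sum turned to 0.024 without UBQ, 0.12 without DREM and 0.0070 without DREM and DEH2, of which only that without DREM passed (exact permutation, p = 0.0485).

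Leaving out each of 24 libraries changed 26 of 1104 values, in 8 results. The ranges were -0.15 to -0.090 for 4A in DREM, -0.17 to -0.12 for 4B in well-watered UBQ against WT, -0.058 to 0.015 for 4B in DEH2, 0.057 to 0.14 for 4B and -0.055 to 0.020 for 4D in drought DEH2 against WT, 0.15 to 0.24 for 4B and 0.17 to 0.25 for 4D in the DEH2 differences of drought changes, and -0.015 to 0.0047 for the triad sum. Same-numbered libraries did not deviate together (0 of 10 pairs of groups with correlations all over 0.1), and the main fit used no pairing. Whether same-numbered plants were handled together is not stated, and these correlations cannot show it. A replicate block changed no call (SUT1-4A, drought over well-watered over the genotypes, 0.37, adjusted p = 1.85e-14 in limma). Under an equal sum per library, the share of called genes that were higher in the lines against WT was 73.8% in well-watered DREM (45.3% as deposited) and 72.0%, 77.5% and 68.4% in drought UBQ, DREM and DEH2 (50.2%, 48.5% and 48.8%). For the differences of drought changes it was 72.3%, 71.2% and 65.9% in UBQ, DREM and DEH2 (48.1%, 46.7% and 48.8%).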
